A study of Mus musculus with 17 samples.

Results

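Fibroblasts make and remodel the extracellular matrix, and 9 genes that mark them and other mesenchymal cells were followed here: Fn1, Postn, Lox, Thbs1, Pdgfra, Pdgfrb, S100a4, Vim and Twist2. They were chosen by name, as 9 of the 23891 gene symbols in the deposited RNA-seq tables, and each is given by its RefSeq transcript with the highest mean FPKM over all 17 samples. The samples were 4 lines of spermatogonial stem and progenitor cells (SSCs), 6 lines of multipotent adult spermatogonial-derived stem cells (MASCs), 2 lines of embryonic stem cells (ESCs), 2 lines of induced pluripotent stem (iPS) cells, 2 cultures of haematopoietic stem and progenitor cells (HSCs) and 1 sample of mouse embryonic fibroblasts (MEFs). The MEF sample served as the yardstick, and each value is also given as a share of the MEF value. FPKM, fragments per kilobase of transcript scaled to the depth of the library, is a level per length, so that levels of different genes can be set side by side.

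The SSCs were grown on MEF feeder cells and kept in a gelatin-coated dish for 2 hours before collection to take feeder cells out. MASCs are colonies of ESC morphology that arose in long-term SSC cultures and were picked by hand. MASCs, ESCs and iPS cells were cultured with MEFs in ESC medium with LIF, and the labels give no step that took the feeders out. The iPS cells were made from MEFs (E13.5, tetO-4F2A crossed with H3.3B-HA) with doxycycline, and the MEF sample was made from E13.5 H3.3B-HA embryos. The HSCs were lineage-negative (Lin-) bone marrow cells on E4ORF1-HUVECs, an endothelial feeder layer of human origin. The strain was Oct4-GFP for SSC.1, SSC.2, MASC.1, MASC.2 and ESC.1, 129mix for SSC.4, MASC.3, MASC.4, ESC.2, both iPS lines and the MEFs, Gt(ROSA26)Sor-lacZ for MASC.5 and MASC.6, and C57Bl/6J for SSC.3 and both HSC cultures. The labels do not say whether lines of a group came from separate animals, so p-values cover the spread between these lines. In bulk RNA, a feeder cell's transcripts and those of the line grown on it cannot be told apart, nor can fewer cells of a type and less RNA per cell.

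The matrix genes of the set act outside the cell. Fn1 encodes fibronectin, a fibril-forming matrix glycoprotein that cells grip through integrins, and Postn encodes periostin, a matricellular protein that binds collagen. Lox encodes lysyl oxidase, which crosslinks collagen and elastin, and Thbs1 encodes thrombospondin-1, which can activate latent TGF-beta. Pdgfra and Pdgfrb are the receptors for platelet-derived growth factor (PDGF) and drive the growth of mesenchymal cells. Vim encodes vimentin, the intermediate filament of mesenchymal cells, S100a4 is a calcium-binding protein also called fibroblast-specific protein, and Twist2 is a transcription factor of the mesenchyme. Vimentin and S100a4 are well known in blood cells as well.

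On mm9, the build of the files, the listed transcripts were Fn1 at chr1:71632047-71699808, Twist2 at chr1:93698054-93744604, Thbs1 at chr2:117937658-117952869, Vim at chr2:13495938-13504453, Postn at chr3:54165029-54194963, S100a4 at chr3:90407692-90409967 and Pdgfra at chr5:75548316-75594229. All 153 values of the 9 genes in the 17 samples carried the Cufflinks status OK.

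Fn1 transcripts differ by 2 cassette exons, EDB and EDA, each coding for 1 fibronectin type III repeat, and these exons are shown because the Fn1 transcripts were not spread alike over the samples, as given further on. Both were read from the mm9 genome on the minus strand of chromosome 1, 5′ to 3′, with no part marked by capitals. EDB has 273 bases at chr1:71660337-71660609 and EDA has 270 bases at chr1:71650234-71650503.
Fn1 EDB: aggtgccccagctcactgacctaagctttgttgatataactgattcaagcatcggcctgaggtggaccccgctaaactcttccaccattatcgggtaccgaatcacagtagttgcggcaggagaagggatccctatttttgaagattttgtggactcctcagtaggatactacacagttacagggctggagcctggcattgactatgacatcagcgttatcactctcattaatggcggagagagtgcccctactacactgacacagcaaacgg
Fn1 EDA: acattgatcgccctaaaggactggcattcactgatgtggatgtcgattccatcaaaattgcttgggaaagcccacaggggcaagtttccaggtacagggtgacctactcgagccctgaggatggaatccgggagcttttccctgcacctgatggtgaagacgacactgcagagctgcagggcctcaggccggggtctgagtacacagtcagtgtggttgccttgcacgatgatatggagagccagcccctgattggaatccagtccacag

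The promoters of Postn, S100a4 and Vim are shown because these 3 genes took the ends of the order of shares in many samples. Each run holds the 250 bases upstream of the start site in the RefSeq table (GRCm38.p6, plus strand), and TATAAA is in capitals.
Postn (chr3:54360857-54361106): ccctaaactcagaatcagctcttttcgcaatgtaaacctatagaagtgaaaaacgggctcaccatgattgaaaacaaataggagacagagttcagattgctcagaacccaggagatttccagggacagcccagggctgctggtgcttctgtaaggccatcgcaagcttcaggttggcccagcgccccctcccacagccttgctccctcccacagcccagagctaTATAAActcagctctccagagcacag
S100a4 (chr3:90603520-90603769): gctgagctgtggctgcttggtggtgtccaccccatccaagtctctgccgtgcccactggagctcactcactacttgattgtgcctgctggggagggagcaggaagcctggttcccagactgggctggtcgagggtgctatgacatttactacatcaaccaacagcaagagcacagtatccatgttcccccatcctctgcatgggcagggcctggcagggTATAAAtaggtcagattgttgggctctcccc
Vim (chr2:13574061-13574310): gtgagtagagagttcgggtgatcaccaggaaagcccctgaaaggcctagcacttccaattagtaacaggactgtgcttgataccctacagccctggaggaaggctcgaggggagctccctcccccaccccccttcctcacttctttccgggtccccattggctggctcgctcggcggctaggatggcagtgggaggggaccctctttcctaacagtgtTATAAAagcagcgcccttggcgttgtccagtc
The letters TATAAA began at -26 from the start site in Postn, at -31 in S100a4 and at -32 in Vim. They were absent from the same window of Pdgfra and Twist2, so that 3 of the 5 members with a promoter examined held them, against 12.4% of all 32851 promoters in the table. Of the other motifs searched on both strands, GGGCGG was in 1 of the 5 (32.7% of all promoters), CANNTG in 1 (66.2%) and TGANTCA in 0 (6.7%). Another Postn start site (chr3:54359017-54359266) did not match the start in the deposited data and was left out of the 5. It held none of these motifs, TATAAA included. The shares over all promoters count every listed start site. The promoters of Fn1, Thbs1, Lox and Pdgfrb were not examined.

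The deposited tables hold no read counts, so the counting error of a value is unknown. Total FPKM was between 427143 and 709052 per sample, between 13532 and 16272 transcripts had at least 1 FPKM, and 1 FPKM corresponded to a coverage of 1.26 to 3.23 reads per base. The MEF sample also held macrophage markers, with a sum over 5 genes of 3551 FPKM, most of it Lyz2 at 3336 FPKM. It listed Col1a1 at 0 beside Col1a2 at 3060 FPKM and Col3a1 at 1080 FPKM. In the MEF sample 6 transcripts had a Cufflinks status other than OK, and the 0 of Col1a1 was not read as absence of that collagen. Among the other groups, the 5 macrophage markers summed to 3.89 to 226 FPKM in SSCs, 13.7 to 109 in MASCs, 14.2 to 115 in ESCs, 6.66 to 12.5 in iPS cells and 270 to 279 in HSCs. The 5 mast cell genes measured summed to 38122 and 62552 FPKM in the HSC cultures, to 26.4 in SSC.3, 46.5 in MASC.2 and 28.4 in ESC.1, and to less than 1 FPKM in the rest.

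In the MEFs, every one of the 9 genes was expressed, from Pdgfra at 35.7 FPKM to Vim at 1888 FPKM. Thbs1 was second at 1769 FPKM, followed by Fn1 (879), Postn (694), S100a4 (520), Lox (407), Twist2 (103) and Pdgfrb (75.8). With 1 MEF sample this order has no replicate check. In the other samples the markers lay far lower, as the plot of shares shows.

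**Figure D1:**
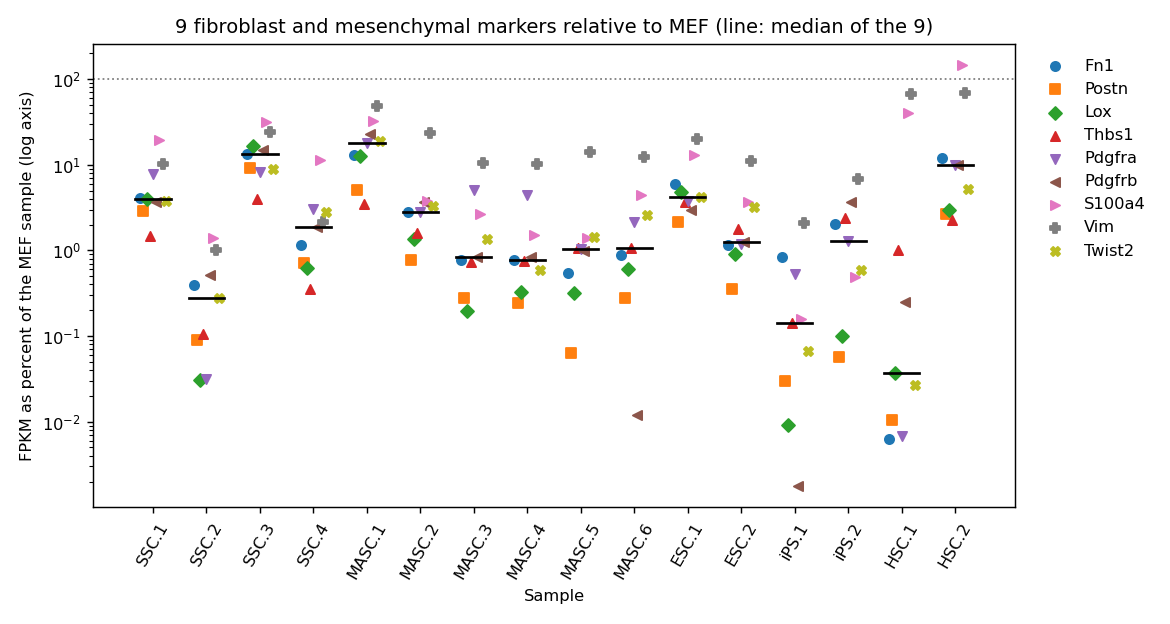
FPKM of each of the 9 markers as a percent of its value in the MEF sample (log axis) in the 16 other samples, with a black line at the median of the 9. SSC.3 (median 13.4%) and MASC.1 (18.1%) stand highest among the lines on feeders, SSC.2 (0.279%) and iPS.1 (0.143%) lowest, and Vim and S100a4 lie above the median in both HSC cultures.

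The median share of the MEF value over the 9 markers was 3.97, 0.279, 13.4 and 1.86% in SSC.1 to SSC.4, a mean of 4.88% ± 5.89 (SD, n = 4). In the 6 MASC lines it was 18.1, 2.81, 0.843, 0.776, 1.03 and 1.07%, a mean of 4.10% ± 6.90 (SD, n = 6). The SD was larger than the mean in both groups, since 1 line of each, SSC.3 and MASC.1, stood far above the rest. The medians were 4.15 and 1.26% in ESCs, 0.143 and 1.28% in iPS cells, and 0.0368 and 9.82% in HSCs. The 5 groups overlapped. Without SSC.3 the SSC mean was 2.04%, without MASC.1 the MASC mean was 1.31%, and each HSC culture alone set the HSC mean, which was 9.82% without HSC.1 and 0.0368% without HSC.2.

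Few transcripts fell this far below the MEFs. Over the 6360 transcripts with at least 10 FPKM in the MEFs, the median share was between 73.7 and 96.5% in the other samples. The group mean was under 10% of the MEF value for 8 of the 9 markers in SSCs, in MASCs and in ESCs, for 9 of 9 in iPS cells and for 7 of 9 in HSCs. Over the 6360 transcripts this held for 8.87% in SSCs, 8.36% in MASCs, 10.6% in ESCs, 11.4% in iPS cells and 8.62% in HSCs. The markers were picked as fibroblast genes, so their low share is a description of these cells beside MEFs and was not tested. The exception in SSCs was S100a4 with a mean of 15.97% ± 12.7 (SD, n = 4). In MASCs and ESCs it was Vim, with means of 19.9% ± 15.0 (SD, n = 6) and 15.5% ± 6.16 (SD, n = 2).

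**Figure D2:**
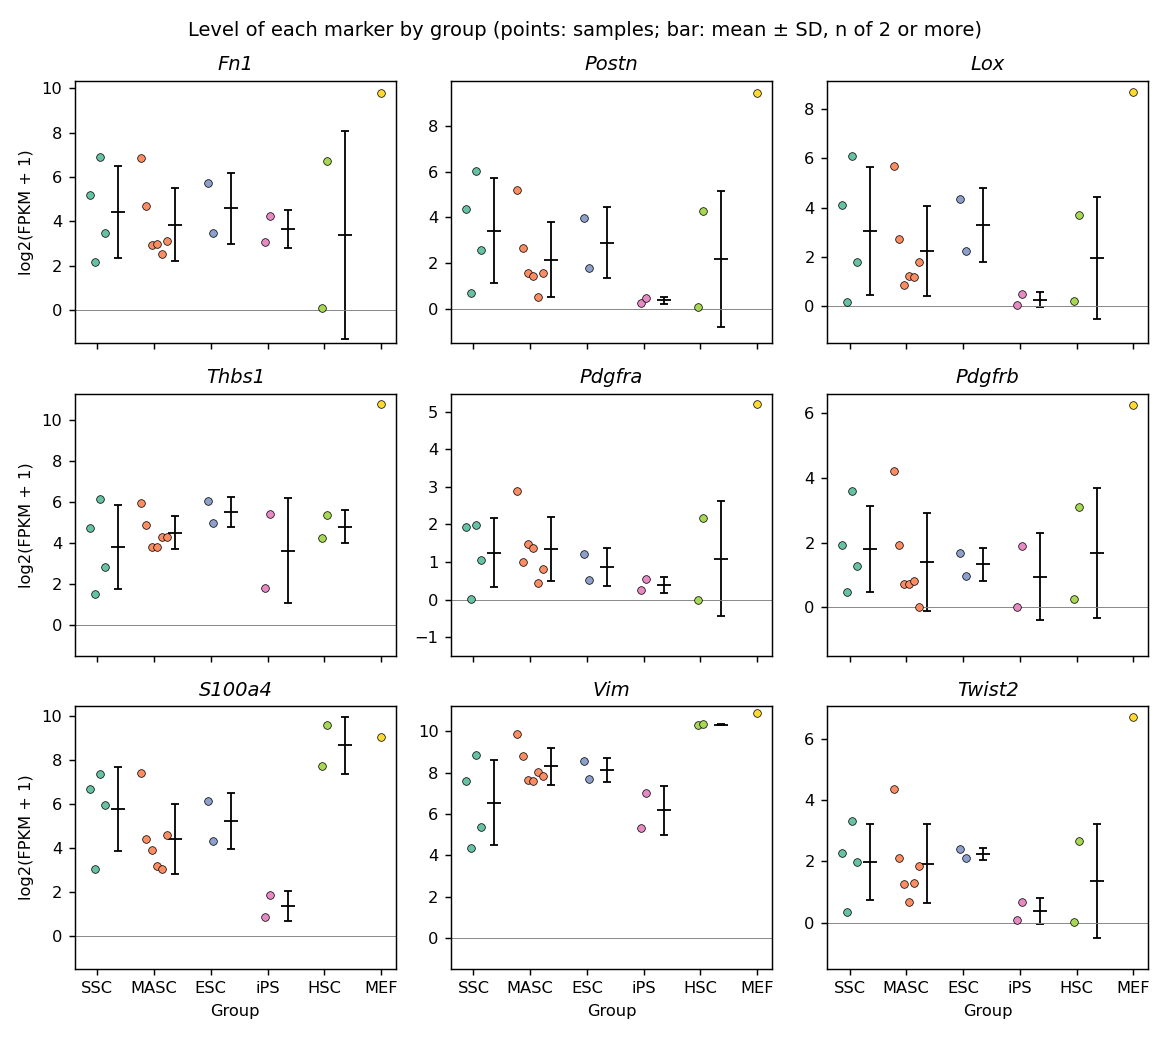
Level of each marker as log2(FPKM + 1) in every sample (points), by group, with the group mean and SD beside the points where a group has at least 2 samples. The MEF point is the highest for every gene but S100a4, where HSC.2 lies above it, and the SSC and MASC points overlap in all 9 panels.

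SSC.3 and MASC.1 were among the 3 highest lines on feeders for each of the 4 matrix genes. Fn1 was at 35.6, 3.48, 118 and 10.2 FPKM in SSC.1 to SSC.4, and in the MASC lines its lowest, median and highest values were 4.77, 7.27 and 114 FPKM. Fn1 was at 52.2 and 10.0 FPKM in ESCs, 7.35 and 18.1 in iPS cells, and 0.0557 and 104 in HSCs. The high values belonged to SSC.3, MASC.1 and HSC.2, and Fn1 ranges of all 5 groups overlapped.

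Postn was at 19.8, 0.618, 63.8 and 5.004 FPKM in the SSC lines and at 0.439, 1.95 and 35.4 FPKM (lowest, median, highest) in MASCs. In ESCs it was at 14.9 and 2.46, in iPS cells at 0.206 and 0.396, and in HSCs at 0.0729 and 18.6 FPKM. Periostin had the lowest share of the MEF value of all 9 markers in MASC.2, MASC.4, MASC.5, both ESC lines and iPS.2. Lox was also highest in SSC.3 and MASC.1, with 16.2, 0.126, 66.9 and 2.51 FPKM in SSCs and 0.806, 1.90 and 51.3 FPKM (lowest, median, highest) in MASCs. Lox was at 19.7 and 3.74 FPKM in ESCs, 0.0368 and 0.403 in iPS cells, and 0.150 and 12.1 in HSCs, so that both iPS lines lay below both ESC lines for Lox and for Postn, with all 4 iPS values under 1 FPKM. Summed over transcripts the iPS lines were again lower, at 0.206 and 2.98 FPKM against 17.2 and 3.89 in ESCs for Postn and at 0.293 and 1.51 against 24.4 and 9.83 for Lox.

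Thbs1 had the lowest share in SSC.1, SSC.3, SSC.4, MASC.1 and HSC.2, although it was the second most abundant marker in MEFs. Its levels were 25.8, 1.88, 70.2 and 6.26 FPKM in SSCs and 12.9, 18.9 and 61.7 FPKM (lowest, median, highest) in MASCs. In ESCs Thbs1 was at 64.3 and 31.1 FPKM, in iPS cells at 2.53 and 42.3, and in HSCs at 17.9 and 40.4. Thbs1 is the 1 matrix gene of the 4 that was at more than 1% of the MEF value in HSC.1.

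The PDGF receptors were the least abundant markers in MEFs, and each was under 1 FPKM in 8 of the 17 samples. Pdgfra was at 2.81, 0.0112, 2.96 and 1.09 FPKM in SSCs, at 0.368, 1.29 and 6.45 FPKM (lowest, median, highest) in MASCs, at 1.33 and 0.429 in ESCs, at 0.190 and 0.456 in iPS cells and at 0.00242 and 3.50 in HSCs. Pdgfrb was at 2.79, 0.389, 11.1 and 1.41 FPKM in SSCs, at 0.00911, 0.693 and 17.5 FPKM in MASCs, at 2.23 and 0.957 in ESCs, at 0.00134 and 2.76 in iPS cells and at 0.188 and 7.49 in HSCs. Some of these low values depended on how Cufflinks split a gene between its 2 transcripts: summed over both, Pdgfrb was at 1.63 FPKM in MASC.6 and 0.565 in iPS.1, where the listed transcript was at 0.00911 and 0.00134, and Pdgfra was at 0.663 in SSC.2, where it was at 0.0112. The order among lines under 1 FPKM was not read. MASC.1 was the highest line on feeders for both receptors.

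Twist2, the only transcription factor of the 9, was at 3.84, 0.286, 9.10 and 2.92 FPKM in SSCs and at 0.608, 2.05 and 19.4 FPKM (lowest, median, highest) in MASCs. It was at 4.26 and 3.31 FPKM in ESCs, 0.0696 and 0.608 in iPS cells and 0.0275 and 5.34 in HSCs. As for Lox, both iPS lines were below both ESC lines, and the SSC and MASC ranges overlapped.

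S100a4 and Vim were the markers with the highest shares. S100a4 was at 102, 7.27, 164 and 59.7 FPKM in SSCs and at 7.17, 16.8 and 168 FPKM (lowest, median, highest) in MASCs. In ESCs it was at 67.6 and 18.9 FPKM, in iPS cells at 0.831 and 2.56, and in HSCs at 211 and 759, the last above the MEF value of 520 FPKM. S100a4 had the highest share of the 9 markers in all 4 SSC lines and in HSC.2, except that in SSC.2 Fn1 summed over its transcripts was higher (2.84% against 1.40%).

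Vim was at 195, 19.2, 459 and 40.5 FPKM in SSCs and at 193, 247 and 923 FPKM (lowest, median, highest) in MASCs. It was at 374 and 209 FPKM in ESCs, 39.0 and 128 in iPS cells and 1260 and 1295 in HSCs. Vim had the highest share in all 6 MASC, both ESC and both iPS lines and in HSC.1, except that in both iPS lines Fn1 summed over its transcripts was higher (6.83 and 9.16% against 2.07 and 6.80%). All 6 MASC lines had Vim above SSC.2 and SSC.4, and SSC.1 and SSC.3 lay within the MASC range.

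**Figure D3:**
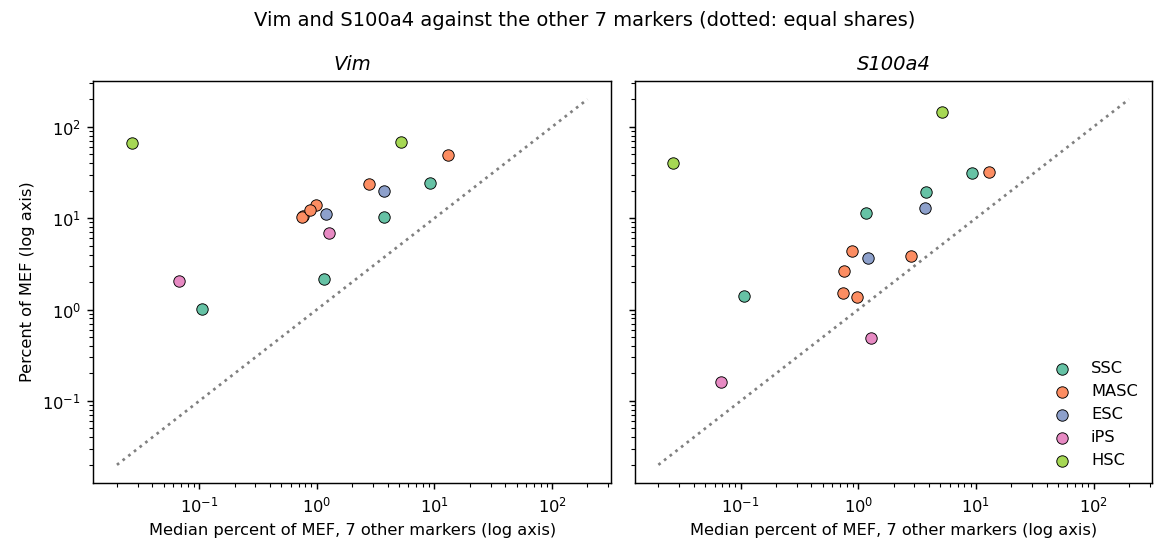
Share of the MEF value (percent, log axes) of Vim (left) and S100a4 (right) against the median share of the other 7 markers in the 16 samples, coloured by group, with a dotted line where both are equal. Vim lies above the line in all 16 samples, by 1.85 to 9.56 times in SSCs and 3.77 to 14.2 times in MASCs, and S100a4 lies below it only in iPS.2.

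Set against the median of the other 7 markers in the same sample, the share of Vim was 1.85 to 9.56 times as high in SSCs and 3.77 to 14.2 times in MASCs. The factor was 5.32 to 9.23 in ESCs, 5.32 to 30.5 in iPS cells, and 2494 in HSC.1 and 13.2 in HSC.2. In HSC.1 and iPS.1 the median of the other 7 was that of Twist2, at only 0.0275 and 0.0696 FPKM. The factors 2494 and 30.5 thus divide by a value near 0, and their size was not read. For S100a4 the factor was 5.24, 13.1, 3.42 and 9.92 in SSC.1 to SSC.4 and between 1.36 and 5.02 in MASCs. In iPS.2 it was 0.386. HSC.1 held Vim at 66.8% and S100a4 at 40.5% of the MEF value beside Fn1 at 0.00634%, Postn at 0.0105% and Pdgfra at 0.00678%. HSC.2 held Vim at 68.6% together with Fn1 at 11.9% and Postn at 2.68%, and its 21 other fibroblast matrix genes summed to 1432 FPKM against 47.0 in HSC.1. The source of these matrix transcripts in HSC.2 was not tested.

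A few of the 14 lines on MEF feeders held the top or the bottom of the order for most markers. SSC.3 and MASC.1 were among the 4 highest lines for 9 of 9 markers, and SSC.1 and ESC.1 for 7 each. SSC.2 was among the 4 lowest for 9 of 9 markers and iPS.1 for 8. The lines between changed places, as iPS.2 ranked from 4 to 13 and MASC.3 from 4 to 12 among the 14. Over the 36 pairs of markers, Pearson's r of log2(FPKM + 1) across the 14 lines was between 0.556 and 0.9748 with a median of 0.789, and the 8 pairs with Vim had a median of 0.682. These points share libraries, groups and feeder culture, so r is a description. Genes most like the mean of the 9 markers across these lines were Col5a2 (r = 0.990), Serpinf1 (0.974), Ly6a (0.972), Col1a2 (0.972), Col6a1, Col3a1, Igfbp7, Cdh11, Bgn and Angptl2 (0.964). Their r without MASC.1 and SSC.3 was between 0.918 and 0.982. Col5a2, Col1a2, Col6a1 and Col3a1 encode collagen chains and Bgn encodes the matrix proteoglycan biglycan.

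Other cell markers were also high in some of these lines. The 21 fibroblast matrix genes, all measured, summed to 2813 FPKM in MASC.1 and 2203 in SSC.3 against 140 in SSC.2 and 332 to 791 in the other 5 MASC lines. Xist, the transcript of the inactive X chromosome, was at 15.0 FPKM in MEFs, 2.20 in MASC.1, 1.28 in SSC.3, 1.05 in ESC.1 and at most 0.622 in the other lines. Macrophage Lyz2 did not share the order, since it was at 212 FPKM in SSC.2 and at 1.78 and 1.42 in SSC.3 and MASC.1. The part of feeder cells in the levels of the 9 markers was not tested.

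MASCs arise from SSCs, and the comparison of both asked whether the markers differ between them. Medium differed between the groups along with conversion, and the gelatin step against feeders is given for SSCs alone. These cannot be told apart here. In a limma fit of log2(FPKM + 1) over the 12 SSC, MASC and ESC lines, 0 of the 9 markers passed an adjusted p of 0.05 between MASCs and SSCs, with 0 of 9 also under a raw p of 0.05, while 30.9% of all 32661 transcripts passed. The MASC and SSC values overlapped for 9 of 9 markers, while 25.3% of all transcripts did not overlap. The median log2 difference of the 9 markers was -0.42, beside -0.0048 over all transcripts. Vim had the largest difference, 1.76 higher in MASCs on the log2 scale (SE 0.858, 95% interval -0.17 to 3.68, limma adjusted p = 0.160, exact permutation p = 0.0952, two-sided, n = 6 and 4). S100a4 was at -1.35 (interval -3.70 to 1.00), Postn at -1.26 (-3.90 to 1.37), Lox at -0.80 (-3.72 to 2.13) and Fn1 at -0.58 (-3.10 to 1.93). The remaining differences were 0.69 for Thbs1, 0.09 for Pdgfra, -0.42 for Pdgfrb and -0.06 for Twist2. The intervals run over several log2 units for most of these genes, so differences of that size between MASCs and SSCs were not detectable with these lines. With strain as a block Vim passed (2.89, limma adjusted p = 0.0341), as it did without SSC.3 (2.53, limma adjusted p = 0.0361). SSC.3 is the only C57Bl/6J line of this fit, so with the strain block it adds nothing to the difference. The same holds for MASC.5 and MASC.6, whose strain is found only in MASCs. Both settings thus leave out SSC.3, the SSC line highest in Vim, and are not separate checks. The strain block turned the sign of Fn1 (1.06), Postn (0.43), Lox (0.94), Pdgfrb (0.87) and Twist2 (0.72), none of which passed in either fit, so no direction was read for these 5.

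**Figure D4:**
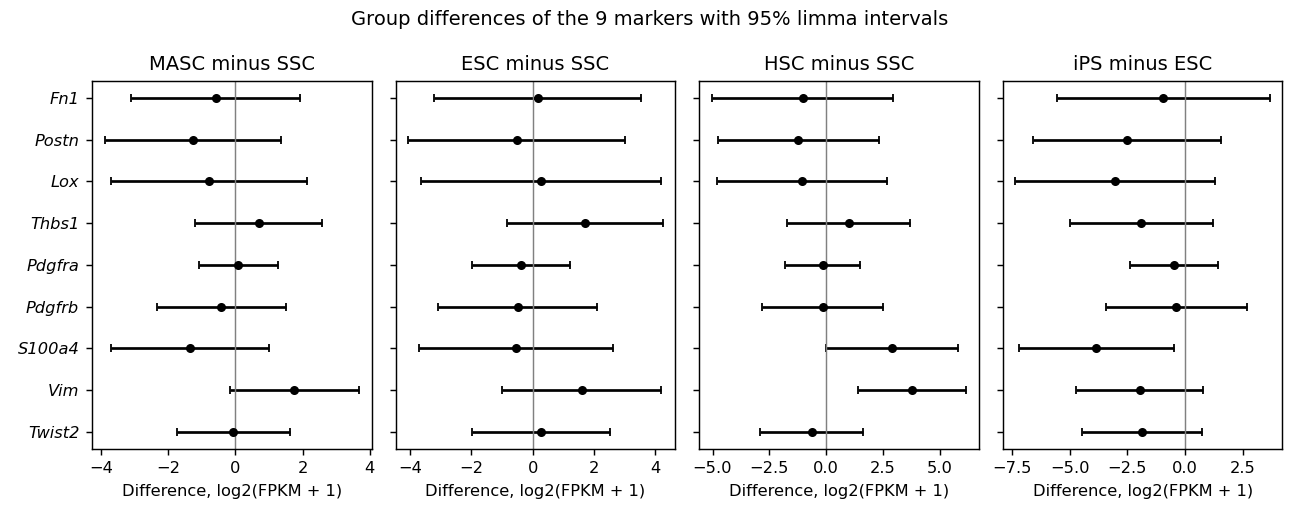
Difference of group means on the log2(FPKM + 1) scale for the 9 markers, with 95% limma intervals, for MASCs minus SSCs, ESCs minus SSCs, HSCs minus SSCs and iPS cells minus ESCs. Nearly all intervals include 0; those of Vim in HSCs minus SSCs (1.40 to 6.16) and of S100a4 in iPS cells minus ESCs (-7.21 to -0.50) do not.

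ESCs against SSCs gave 0 of 9 markers past an adjusted p of 0.05 (background 21.4% of transcripts) and 0 under a raw p of 0.05. The largest differences were 1.70 for Thbs1 (interval -0.84 to 4.23, limma adjusted p = 0.359) and 1.59 for Vim (-0.99 to 4.17, limma adjusted p = 0.406). MASCs against ESCs also gave 0 of 9, with 0 under a raw p of 0.05 and a background of 0.0306%. The difference of Vim there was 0.17 (interval -2.27 to 2.60) and that of Lox was -1.06 (-4.76 to 2.64). These 3 comparisons share their lines and are not independent.

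The iPS cells were made from fibroblasts, and their comparison with ESCs used a limma fit over all 17 samples. All 9 markers had a lower mean in iPS cells, and the median difference was -1.89 on the log2 scale beside 0.00 over all transcripts. Still, 0 of 9 passed an adjusted p of 0.05 (background 0.309%), and S100a4 alone had a raw p under 0.05, with a difference of -3.85 (SE 1.53, limma adjusted p = 0.523). S100a4 was also the 1 marker with a log2 difference of 2 or more and a raw p under 0.05, as 0.346% of all transcripts were. S100a4, Postn, Lox, Vim and Twist2 did not overlap between the 2 iPS and the 2 ESC lines, that is 5 of 9, beside 40% of all transcripts. With 2 lines each, the smallest exact permutation p is 0.333. Gene by gene, iPS.1 was lower than iPS.2 for 9 of 9 markers. Strain was not balanced, since both iPS lines share the strain of ESC.2 and not that of ESC.1. Of the ESC lines, ESC.2 lay above iPS.2 for the 5 markers without overlap and below it for the others. With strain as a block the differences of Fn1 (0.0018) and Pdgfrb (0.24) turned positive, and the others stayed negative. Without ESC.1 that of Fn1 was 0.20, and without iPS.1 that of Pdgfrb was 0.58. No direction was thus read for Fn1 and Pdgfrb.

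HSCs against SSCs, in the same fit, gave 1 of 9 markers past an adjusted p of 0.05, and 33.4% of all transcripts passed in either direction (12.7% as higher in HSCs). That marker was Vim, higher in HSCs by 3.78 on the log2 scale (SE 1.09, limma adjusted p = 0.0182; the exact permutation p was 0.133, where 0.0667 is the smallest possible). S100a4 was higher by 2.89 (SE 1.33, limma adjusted p = 0.120), and like Vim it did not overlap between the groups, as 43% of all transcripts did not. The median difference of the 9 markers was -0.16, beside -0.02 over all transcripts. The call of Vim was lost with the replicate number as a block (3.64, limma adjusted p = 0.0994). It was also lost with strain as a block (1.47, limma adjusted p = 0.454). SSC.3 is the only SSC line of the HSC strain, so that fit set the HSCs against SSC.3 alone, the SSC line highest in Vim. Without HSC.1 or HSC.2 the difference was 3.80 or 3.76, each resting on 1 HSC culture. Both HSC cultures expressed the blood gene Ptprc (19.7 and 23.7 FPKM), and their 5 measured mast cell genes summed to far more (62552 and 38122 FPKM). The feeder layer and medium differed between HSCs and SSCs along with the cell type.

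Fn1 transcripts fell into 3 classes by their listed lengths. Taking 273 bases for EDB and 270 for EDA, NM_010233 (8425 bases) holds both exons, 3 transcripts hold EDA without EDB and 3 hold neither, with further steps of 75 and 360 bases. NM_001276410 (7882 bases), the transcript used above, is of the class with neither. The exon classes were examined after the values had been seen, so they are given with no test. They rest on how Cufflinks split the reads among overlapping transcripts.

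In MEFs the class with neither exon took 64.9% of the summed Fn1 FPKM of 1643, and the class with both took 22.9%. The class with both took 36.6, 79.4, 23.7 and 53.7% in SSC.1 to SSC.4 and 39.1 to 64.3% in the 6 MASC lines. It took 49.8 and 47.3% in ESCs and 71.9 and 57.7% in iPS cells. SSC.3 and MASC.1, the lines with the highest marker levels, thus had the lowest share of the both-exon class within their groups and there lay nearest to the MEFs. SSC.1 (36.6%) was nearer to the MEFs than MASC.1 (39.1%). In ESCs the line with the higher marker median, ESC.1, had the higher share, and in iPS cells that line, iPS.2, had the lower share. In HSC.2, 14.6% of 312 FPKM was of the class with both and 49.0% of the class with EDA alone, and HSC.1 had a summed Fn1 of only 2.07 FPKM.

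**Figure D5:**
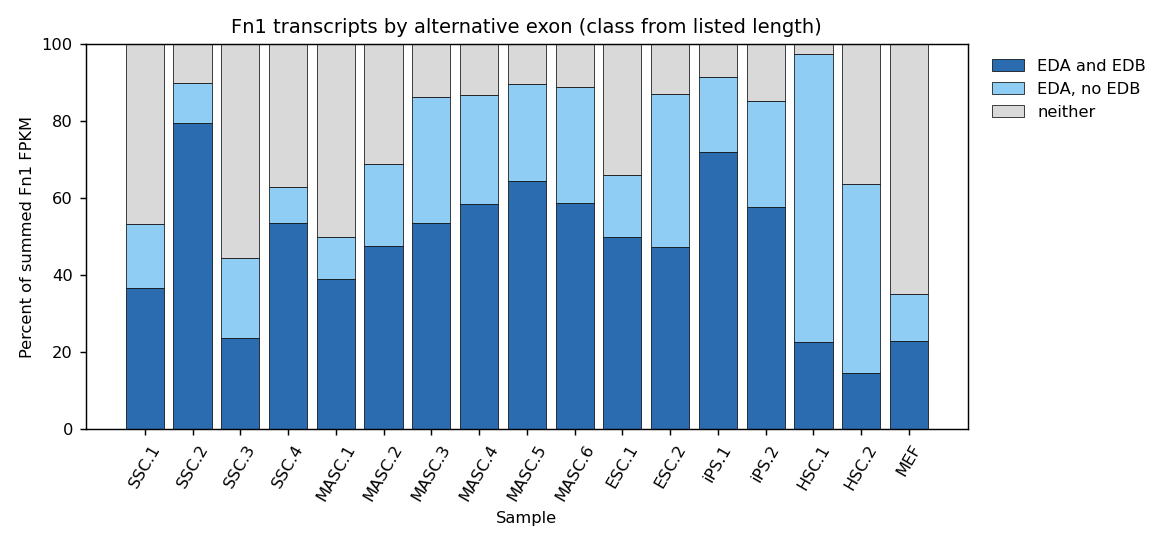
Percent of the summed Fn1 FPKM in each sample that fell to transcripts with both EDA and EDB (dark blue), with EDA alone (light blue) and with neither exon (grey), classed by listed length. The MEF bar is mostly grey (64.9%), and grey is also the largest part in SSC.1 (46.8%), SSC.3 (55.6%) and MASC.1 (50.2%). The class with both is the largest in all other lines on feeders.

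Relative to MEFs, the both-exon transcript NM_010233 was at 4.98 to 16.9% in SSCs, 8.43 to 30.4% in MASCs, 26.1 and 11.6% in ESCs and 21.4 and 23.0% in iPS cells. In FPKM it was at 18.8 to 63.5 in SSCs, 31.8 to 114 in MASCs, 98.4 and 43.8 in ESCs and 80.7 and 86.8 in iPS cells. NM_001276410 in the same iPS lines was at 0.837 and 2.06% of the MEF value. The choice of transcript therefore set where Fn1 stood among the markers in iPS cells and in SSC.2. Over all its transcripts, Fn1 was at 112 and 151 FPKM in the iPS lines, against 34.9 to 268 in SSCs, 54.8 to 293 in MASCs and 1643 in MEFs.

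Genes that act with the markers were read from lists, by the same limma fit of MASCs and SSCs, in which 11.4% of all transcripts were higher and 19.5% lower in MASCs. As for the markers, conversion cannot be told apart from medium and the gelatin step. Of 21 further fibroblast matrix genes 1 was higher in MASCs and 0 lower, with a median difference of -0.59. That gene was Ctgf, a secreted matricellular protein (log2 difference 2.49, SE 0.625, limma adjusted p = 0.0130). Of 4 other lysyl oxidase genes and of 6 TGF-beta ligands and receptors 0 passed. Among the 4 PDGF ligands Pdgfb was lower in MASCs (-2.71, SE 0.361, limma adjusted p = 0.000355), with 1.38 to 6.03 FPKM against 13.2 to 40.7 in SSCs. Pdgfc was higher (1.25, SE 0.226, limma adjusted p = 0.00218), and Pdgfa had a difference of 0.60 that did not pass.

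Of 12 genes of the fibroblast surface and cytoskeleton, 5 were higher in MASCs and 0 lower. Tagln, an actin-binding protein of smooth muscle and fibroblasts, was at 60.0 to 227 FPKM in MASCs and 1.49 to 8.90 in SSCs (log2 difference 4.44, SE 0.509, limma adjusted p = 0.000142). Acta2, smooth muscle actin, was at 11.5 to 79.5 FPKM in MASCs and 0.948 to 9.15 in SSCs, and Myl9, a myosin light chain, differed by 2.87. Neither overlapped between the groups, and the other 2 were Cnn1 and Tpm2. Of 8 other intermediate filament genes 5 were higher and 0 lower: Krt8 (6.33) and Krt18 (4.43), the keratins of simple epithelia, the lamin Lmnb1 (2.41), Krt19 and, at a trace level, Gfap. Of 9 epithelial genes 7 were higher and 1 lower. In the S100 family, S100a10 (2.14) and S100a11 (2.02) were higher and S100b, near 0 in both groups, was lower, of 11 genes.

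Of the 10 mesenchymal transcription factors 0 were higher and 3 lower in MASCs, a share not far from the 19.5% of all transcripts, with a median difference of -1.08. Zeb2 (0.70) and Prrx1 (0.14) had positive differences that did not pass. Foxc2, a forkhead factor, was at 14.8 to 32.2 FPKM in SSCs and 0.113 to 2.15 in MASCs (log2 difference -4.00, SE 0.321, limma adjusted p = 1.62e-05). Twist1, the relative of Twist2, was at 12.3 to 20.2 FPKM in SSCs and 1.58 to 7.67 in MASCs (-2.22, SE 0.333, limma adjusted p = 0.000741). Zeb1 was the third (-1.21), and Snai1 had a difference of -1.63 that did not pass (limma adjusted p = 0.0960). Foxc2 was higher in all 4 SSC lines than in the MEFs (4.62 FPKM), and it was highest in SSC.2, the SSC line lowest in the 9 markers. Twist1 was lower in every SSC line than in the MEFs (50.7 FPKM).

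Of 11 integrins and other matrix receptors, 1 was higher and 3 lower in MASCs, near the shares over all transcripts. Itga5, the fibronectin receptor's alpha chain, was higher in MASCs (1.86, SE 0.396, limma adjusted p = 0.00553). Sdc4, a heparan sulfate proteoglycan of focal adhesions, was at 325 to 538 FPKM in SSCs and 30.1 to 67.2 in MASCs (-3.40, SE 0.248, limma adjusted p = 8.76e-06). Cd47, a receptor of thrombospondin-1, was lower as well (-1.60, SE 0.308, limma adjusted p = 0.00315), as was Itgb3 (-1.06).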

How the data were processed

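RNA-seq libraries of 17 samples were used, 1 deposited table per sample. The authors deposited FPKM values per RefSeq transcript, made with TopHat2 2.0.11 on mm9, without PCR duplicates and reads mapping to several places, and with Cufflinks using upper-quartile and GC-normalization; the Cufflinks version is not given in the sources used here. The coverage (a signal in reads per base) is as deposited. Rows of 601 further loci were left out, which leaves 32661 transcripts. Groups came from the sample titles. Values were used as log2(FPKM + 1) with no filter on low values, in limma 3.58.1 (R 4.3.3), with p-values adjusted over all transcripts by Benjamini-Hochberg and a threshold of 0.05. SSCs, MASCs and ESCs were fitted over 12 lines, comparisons with iPS cells or HSCs over 17 samples. Single markers also had an exact two-sided permutation test. Likeness genes are the 10 with the highest r among those with at least 1 FPKM in at least 2 lines. Of each list, at most the 4 genes with the largest difference were named by rule; other named genes are those that passed or were chosen after their values were seen. The markers and lists were chosen with earlier results of these data known. The fit was also run on simulated data, drawn as independent normal values for each transcript. Such data do not cover single lines in which the markers stand high together, as in SSC.3 and MASC.1.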

Additional observations from a re-analysis of the deposited data

Results flagged for a closer look

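A single line stood far from the other 5 in the MASC group for every marker. MASC.1 was the highest MASC line for Fn1 (13% of the MEF value, the next line being at 2.81%), Postn (5.1%, next 0.78%), Lox (12.6%, next 1.37%), Thbs1 (3.49%, next 1.59%), Pdgfra (18.1%, next 5.09%), Pdgfrb (23%, next 3.66%), S100a4 (32.2%, next 4.41%), Vim (48.9%, next 23.5%) and Twist2 (18.9%, next 3.26%). The gap to the next line was 0.657 to 0.905 of the whole range in the 9 cases, past Dixon's limit for 6 samples. All 9 flags among the 18 groups tested (9 markers in SSCs and in MASCs) fell on this line. The rule was run on untransformed shares, and its chance rate of about 1 in 20 groups holds for values spread normally on that scale. These shares were not shown to be so spread, and the markers are not independent of each other. On log2(FPKM + 1), the scale of the tests, the gaps are a smaller part of the range, and the rule was not run there. Fn1, for example, was at 6.85 in MASC.1, 4.68 in the next MASC line and 2.53 in the lowest. Xist and the fibroblast matrix genes were also highest in MASC.1 among the MASC lines (2.20 and 2813 FPKM); their part in the marker levels was not tested.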

How the results depend on the processing

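The 9 marker differences of the 5 comparisons kept their sign in most of the 765 recomputed values, and 70 changed sign, 0 of them past the threshold in either setting; the cause was not tested. With samples scaled to equal total FPKM, the values that changed sign were ESC-SSC Fn1 -0.15 and MASC-SSC Pdgfra -0.0571. With a pseudocount of 0.1, the values that changed sign were MASC-ESC Pdgfrb -0.42 and MASC-SSC Twist2 0.021. After quantile normalization, the values that changed sign were HSC-SSC Pdgfrb 0.13 and MASC-SSC Twist2 0.15. With the replicate block, the values that changed sign were ESC-SSC Fn1 -0.16, Lox -0.0771, MASC-ESC Fn1 0.087, Twist2 0.084 and MASC-SSC Pdgfrb 0.0704, Twist2 0.12. With the strain block, the values that changed sign were ESC-SSC Postn 0.61, Pdgfrb 0.31, S100a4 0.19, HSC-SSC Thbs1 -1.35, MASC-SSC Fn1 1.06, Postn 0.43, Lox 0.94, Pdgfrb 0.87, Twist2 0.72 and iPS-ESC Fn1 0.0018, Pdgfrb 0.24. With transcripts summed per gene, the values that changed sign were MASC-SSC Fn1 0.11, Pdgfra -0.22. Without MASC.1, SSC.1 and SSC.3, the values that changed sign were MASC-SSC Fn1 0.43, Lox 0.56, Twist2 0.28. With 1 line left out at a time, differences that changed sign ranged as follows: ESC-SSC Fn1 -0.97 to 1.30, Lox -0.80 to 1.33, Pdgfrb -0.93 to 0.11, Postn -1.63 to 0.57, S100a4 -1.45 to 0.35, Twist2 -0.28 to 0.72, and HSC-SSC Fn1 -4.35 to 2.28, Lox -2.84 to 0.67, Pdgfra -1.25 to 0.92, Pdgfrb -1.57 to 1.27, Postn -3.32 to 0.87, Twist2 -1.95 to 0.68, and MASC-ESC Fn1 -1.88 to 0.39, Lox -2.12 to 0.0016, Pdgfrb -0.50 to 0.43, Postn -1.84 to 0.36, S100a4 -1.70 to 0.089, Vim -0.25 to 0.58, and MASC-SSC Fn1 -1.34 to 0.24, Lox -1.75 to 0.22, Pdgfra -0.32 to 0.33, Pdgfrb -0.98 to 0.17, Thbs1 -0.071 to 1.47, Twist2 -0.60 to 0.39, and iPS-ESC Fn1 -2.07 to 0.20, Pdgfrb -1.33 to 0.58. The count of markers called between MASCs and SSCs was 0 to 1 with 1 line left out (1 without SSC.3). It was 1 with the strain block, where SSC.3 adds nothing to the difference, and 0 in the other settings that kept all lines. Without MASC.1, SSC.1 and SSC.3 it was 2, but these lines were left out, after the data were seen, for their levels of the same markers, so this count and its differences follow from the choice and are no test. Between HSCs and SSCs the count of 1 fell to 0 with the replicate block and with the strain block, which set the HSCs against SSC.3 alone. Fits without 1 HSC culture rest on 1 culture and are given above by their differences alone. Between iPS cells and ESCs calling by raw p under 0.05 and a log2 change of 2 or more gave 1 (S100a4) in place of 0. The mean over the 9 markers in place of the median gave a share of 20.4% in HSCs; other shares moved by less than 1 SD. Replicate numbers recur in SSCs and MASCs, but deviations of same-numbered lines correlated between -0.23 and 0.18 (4 pairs), so the numbers were not taken to pair lines; the replicate block changed no other call of a marker. Depth could not be set against the values, since no counts are in the tables, and values under 1 FPKM, 8 of 17 for Pdgfra and Pdgfrb and 5 for Postn, Lox and Twist2, limit these genes.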
